A study of Mus musculus with 8 samples.

Results

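The 10 genes described here are the Notch receptors Notch1, Notch2, Notch3 and Notch4, the ligands Jag1, Jag2, Dll1 and Dll4, and the target genes Hes1 and Hey1, taken by symbol from the 21705 gene names of a kidney cortex RNA table. All 10 were in the table, and all 10 averaged 10 or more across libraries, the level required for testing. The study sequenced polyadenylated RNA of mouse kidney cortex in 2 groups of 4 libraries. The Sav1-null group carried the genotype Sav1-/- (labelled KS) and had received tamoxifen. The wild-type group carried Sav1+/+ (labelled Ctrl) and had received vehicle. Both groups are labelled as mixed background strain. The labels leave out the age of the mice, the Cre driver, the deleted exons and whether each library came from its own animal, so a p-value sets a difference only against the variation from library to library, part or all of which may be technical. Sav1 encodes salvador, a scaffold of the Hippo kinase cascade, which holds the co-activators YAP and TAZ in check, and the comparison asked what changes in cortex when it is lost.

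Notch receptors sit in the cell surface and are switched on by Jagged or Delta-like ligands on a neighbouring cell. Binding exposes the receptor to ADAM proteases and then to gamma-secretase, and the freed intracellular domain enters the nucleus, where it joins RBPJ and a Mastermind protein and turns on Hes and Hey genes, which encode transcriptional repressors. In mouse kidney Notch2 is needed to form the proximal nephron, Notch signalling in the collecting duct favours principal over intercalated cells, and its activation in adult tubule epithelium accompanies fibrosis. In vessels Dll4 and Notch4 are endothelial genes, and Notch3 is best known from mural cells (smooth muscle and pericytes).

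The libraries held about 15741600 to 20859300 reads in the Sav1-null group and 20534900 to 24962900 in the wild-type group, as read from the step size of the low values. Values are RSEM expression estimates normalized by the authors, with an upper quartile of the values above 0 near 1000 in each library, and they are not corrected for gene length. The groups differed across the transcriptome: 6002 of 13677 tested genes were higher and 3452 lower in Sav1-null cortex by limma, a linear model with moderated variances, at an adjusted p under 0.05. The balance depended on scaling, and 3 others were tried, called ratio-scaled (each library divided by its median ratio to the gene-wise geometric mean), quantile-normalized and total-scaled (each library brought to one total). Higher genes made up 63.5% of calls in the deposited scaling, 49.7% when ratio-scaled, 48.3% when quantile-normalized and 81.8% when total-scaled. Over all tested genes the log2 fold change had a median of 0.23 in the deposited scaling, and of 0.00, -0.03 and 0.62 in the others in that order, and changes below are to be read against it. Sav1 was at 898 ± 127 in Sav1-null and 1350 ± 345 in wild-type libraries (SD, n = 4 each), with overlapping groups (limma adjusted p = 0.0220). Xist, a transcript of the inactive X chromosome, was at 12229 ± 2922 in Sav1-null and 0.247 ± 0.494 in wild-type libraries. The Y chromosome gene Ddx3y had no read in Sav1-null libraries and was at 784 ± 58.1 in wild-type libraries. By these transcripts the Sav1-null libraries came from female and the wild-type libraries from male mice. Genotype, treatment and sex therefore cannot be told apart in any difference given here. The column headers are also written differently in each group and repeat the same S numbers in both. Whether the groups were prepared or sequenced apart is not given, and such a difference could not be told apart from genotype either. Sav1-null replicate 4 stood apart on the second principal component (6.82% of the variance) and had the lowest summed endothelial, mural and podocyte markers of its group (values without it are given where it turned a direction).

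Of the promoter table of RefSeq (build GRCm38.p6), 8 of the 10 genes matched, in 9 windows of 250 bases upstream of a transcription start, and Hes1 and Hey1 had no entry. The windows of Notch1 and Jag1 are shown because these are the receptor and the ligand with the smallest p, and that of Notch4 because it did not pass the test and yet holds the same letters as Notch1. Capitals mark GGAATG on either strand, the core letters bound by TEAD factors, the DNA-binding partners of YAP. Notch1 lies on the minus strand at chr2:26503823-26504072, Jag1 on the minus strand at chr2:137116521-137116770 and Notch4 on the plus strand at chr17:34564045-34564294.
Notch1: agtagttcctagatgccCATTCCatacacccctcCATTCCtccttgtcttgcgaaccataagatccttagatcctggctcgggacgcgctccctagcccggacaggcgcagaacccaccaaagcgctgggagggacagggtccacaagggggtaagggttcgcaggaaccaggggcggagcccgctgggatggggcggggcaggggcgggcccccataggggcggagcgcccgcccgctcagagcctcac
Jag1: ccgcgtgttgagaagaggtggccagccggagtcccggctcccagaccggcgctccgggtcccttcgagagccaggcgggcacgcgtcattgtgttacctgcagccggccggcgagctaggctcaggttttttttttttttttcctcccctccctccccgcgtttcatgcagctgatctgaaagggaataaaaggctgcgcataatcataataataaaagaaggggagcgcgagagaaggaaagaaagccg
Notch4: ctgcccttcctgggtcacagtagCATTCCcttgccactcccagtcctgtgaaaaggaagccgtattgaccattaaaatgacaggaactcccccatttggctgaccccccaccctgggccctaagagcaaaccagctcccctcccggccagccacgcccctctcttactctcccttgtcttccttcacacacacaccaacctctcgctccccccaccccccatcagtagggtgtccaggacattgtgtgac
The TEAD letters occurred at 233 and 216 bases before the start of Notch1 and at 227 bases before the start of Notch4, each counted to the first base of the match. They were in none of the windows of Notch2, Notch3, Jag1, Jag2, Dll1 and Dll4, and in 12.6% of all 32851 windows of this length. For the windows of Notch3, Jag2 and Dll1, the bases just after the start matched no GENCODE M21 transcript of the gene. The starts of these windows are therefore less certain than those of the others. The RBPJ letters TGGGAA (in 21.6% of all windows) and the STAT letters TTCNNNGAA (in 7.02%), searched on both strands, were in none of the 9 windows. A match is a description of letters and not a site. Neither match of Notch1 overlapped the other.

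Among the 10 genes, 6 rose in Sav1-null cortex and 0 fell by limma, at an adjusted p under 0.05 and likewise at an unadjusted p under 0.05. The 6 were the receptors Notch1, Notch2 and Notch3, the ligands Jag1 and Dll1, and the target Hes1. In the same comparison 43.9% of all tested genes were called higher and 25.2% lower, so a call alone does not set a Notch gene apart from the cortex at large. In 5 of the 10 (all of these but Dll1) every Sav1-null library lay above every wild-type library, and in 0 of the 10 below, against 41.0% and 24.1% of all tested genes. The median log2 fold change of the 10 was 0.68, against 0.23 for all tested genes. The plot of values by library shows the groups apart for these 5 genes.

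**Figure D1:**
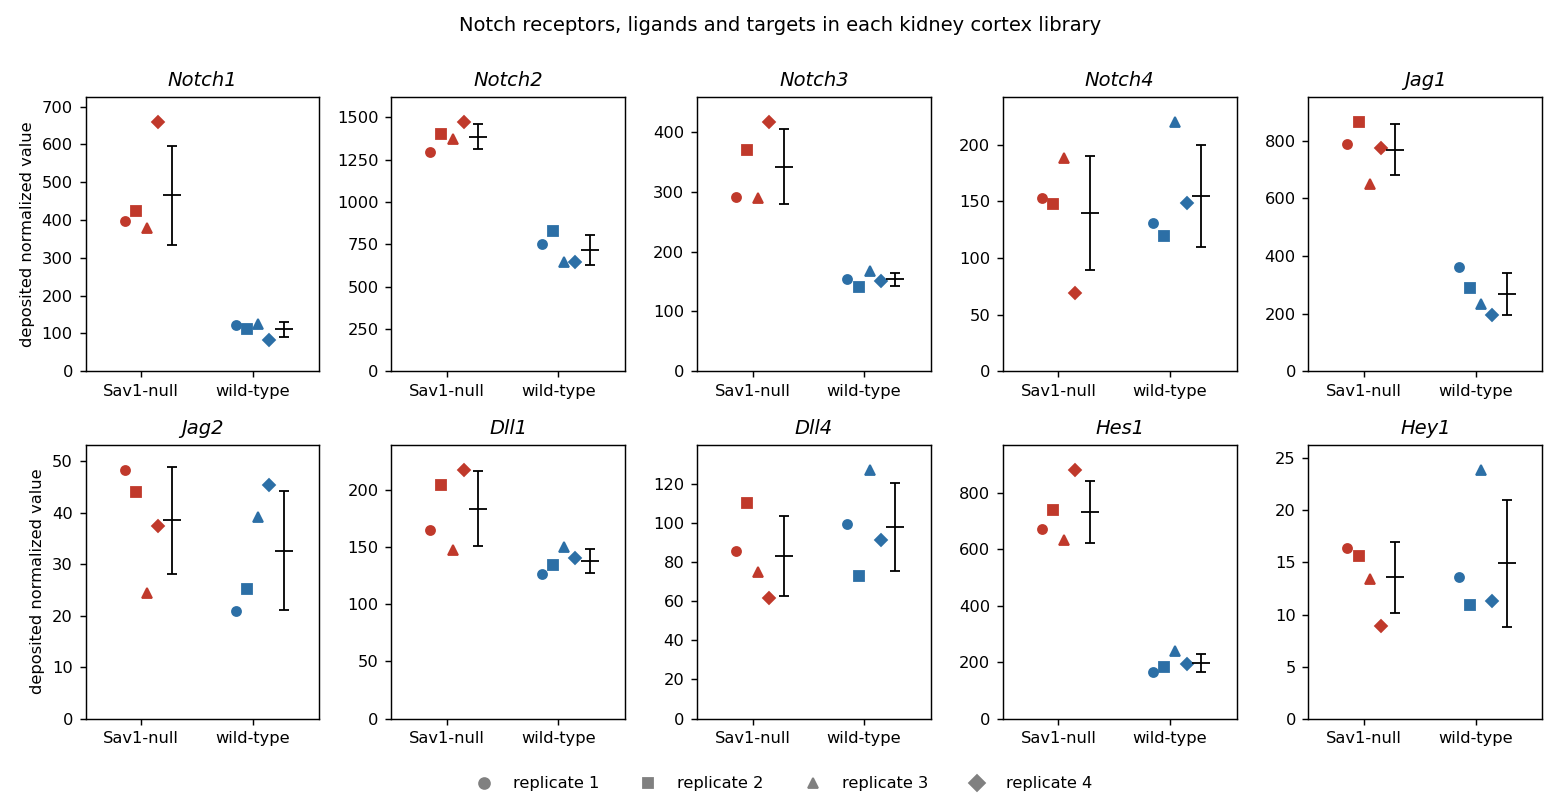
Deposited normalized value (vertical axis, from 0) of each of the 10 Notch genes in the 4 Sav1-null (red, left) and 4 wild-type (blue, right) libraries, with marker shapes for the replicate numbers and black bars for mean ± SD. Notch1, Notch2, Notch3, Jag1 and Hes1 are separated, with Notch1 at 379 or more in every Sav1-null library and at 126 or less in every wild-type library, while Notch4, Jag2, Dll1, Dll4 and Hey1 overlap.

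Among receptors, Notch1 changed most. Its values were 397, 425, 379 and 659 in the Sav1-null libraries, against 123, 111, 126 and 82.8 in the wild-type libraries. The lowest Sav1-null library was 3.02 times the highest wild-type library, and Sav1-null replicate 4 was the highest of all. The log2 fold change was 2.04 ± 0.20 (SE), a 4.12-fold rise (limma adjusted p = 2.27e-05), and 9.89% of tested genes had a higher one. Without Sav1-null replicate 4 the rise was 3.64-fold.

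Notch2 was the receptor with the highest level per kilobase in both groups. Its values were 1294, 1402, 1374 and 1472 in the Sav1-null libraries, against 752, 826, 647 and 645 in the wild-type libraries. The groups were apart, and the Sav1-null libraries varied least of all 10 genes, with a coefficient of variation of 5.33%. Notch2 rose 1.94-fold (log2 fold change 0.95 ± 0.10, SE, limma adjusted p = 2.45e-05).

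Notch3 had values of 292, 371, 291 and 417 in the Sav1-null libraries, against 155, 141, 168 and 150.4 in the wild-type libraries. Again no Sav1-null library reached down to the wild-type range. The rise was 2.20-fold (log2 fold change 1.14 ± 0.14, SE, limma adjusted p = 8.55e-05). Notch4, the endothelial receptor, did not pass the test. It was at 153, 148, 188 and 68.9 in the Sav1-null libraries, against 131, 119.8, 220.1 and 148 in the wild-type libraries, with wide overlap and the lowest value in Sav1-null replicate 4. Its log2 fold change was -0.20 (95% interval from -0.91 to 0.51, limma adjusted p = 0.590), and 0.11 without that library, so a change of up to about 1.42-fold higher or 0.533 of wild-type lay within the interval.

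Of the ligands, Jag1, which encodes Jagged1, rose most. Its values were 789, 865, 649 and 775 in the Sav1-null libraries, against 360.0, 288, 232 and 194 in the wild-type libraries. All Sav1-null libraries were above all wild-type libraries and varied less, with a coefficient of variation of 11.7%. Jag1 rose 2.92-fold (log2 fold change 1.55 ± 0.18, SE, limma adjusted p = 6.45e-05).

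Dll1, which encodes Delta-like 1, changed little. It was at 165, 204, 147 and 218 in the Sav1-null libraries, against 126, 134, 150.2 and 140.2 in the wild-type libraries, and Sav1-null replicate 3 lay inside the wild-type range. The rise of 1.32-fold just passed the test (log2 fold change 0.40 ± 0.15, SE, limma adjusted p = 0.0389), while the two-sided exact permutation p was 0.0571. The call was lost when ratio-scaled (log2 fold change 0.17, limma adjusted p = 0.337), with the replicate block (0.0609), with no filter on low values (0.0509), without Sav1-null replicate 2 or 4 or wild-type replicate 1, 2 or 4, and without wild-type replicates 2 and 3 together, and the direction turned when quantile-normalized (log2 fold change -0.24).

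Jag2 and Dll4 did not pass the test. Jag2, which encodes Jagged2, was low, with about 176 reads in the 4 Sav1-null libraries together and 138 in the wild-type libraries. Its values were 48.4, 44.0, 24.5 and 37.4 in Sav1-null libraries, against 20.9, 25.1, 39.2 and 45.4 in wild-type libraries, and the groups covered much the same range (log2 fold change 0.26, 95% interval from -0.45 to 0.96, limma adjusted p = 0.484). Dll4, the endothelial Delta-like ligand, was at 85.7, 110.1, 74.7 and 61.4 in Sav1-null libraries, against 99.6, 72.8, 127 and 91.4 in wild-type libraries. The groups overlapped here too (log2 fold change -0.24, 95% interval from -0.75 to 0.27, limma adjusted p = 0.374).

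The targets went apart. Hes1, a repressor gene that Notch and several other signals switch on, was at 671, 739, 634 and 883 in Sav1-null libraries, against 167, 183, 241 and 195 in wild-type libraries. The lowest Sav1-null library was 2.63 times the highest wild-type library. Hes1 rose 3.71-fold (log2 fold change 1.89 ± 0.14, SE, limma adjusted p = 5.1e-06), which 11.5% of tested genes exceeded. Hey1, a target best known in endothelium, was near the limit of detection, with about 63 reads in all Sav1-null libraries and 64 in all wild-type libraries. Its values were 16.4, 15.6, 13.4 and 8.86 in Sav1-null libraries, against 13.6, 10.9, 23.9 and 11.3 in wild-type libraries, and 3 of the 4 Sav1-null libraries lay inside the wild-type range (log2 fold change -0.09, 95% interval from -0.85 to 0.66, limma adjusted p = 0.815). Its direction turned without Sav1-null replicate 4 (log2 fold change 0.083) and without wild-type replicate 3 (0.14).

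The plot of log2 fold changes sets each gene under 4 scalings side by side. Notch1, Notch2, Notch3, Jag1 and Hes1 were called higher in each of the 18 alternative settings, with log2 fold changes from 1.57 to 2.43, 0.73 to 1.34, 0.66 to 1.52, 1.30 to 1.93 and 1.59 to 2.27 in that order and limma adjusted p of at most 0.00349. Notch4, Dll4 and Hey1 were called lower when quantile-normalized and in no other setting (log2 fold change -0.86, -1.07 and -1.39, limma adjusted p = 0.0370, 0.00193 and 0.00291), and their sign turned when total-scaled (0.18, 0.14 and 0.26, not called). Jag2 was called in none of the 17 settings in which it was tested, and its log2 fold change turned to -0.82 when quantile-normalized (limma adjusted p = 0.0508).

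**Figure D2:**
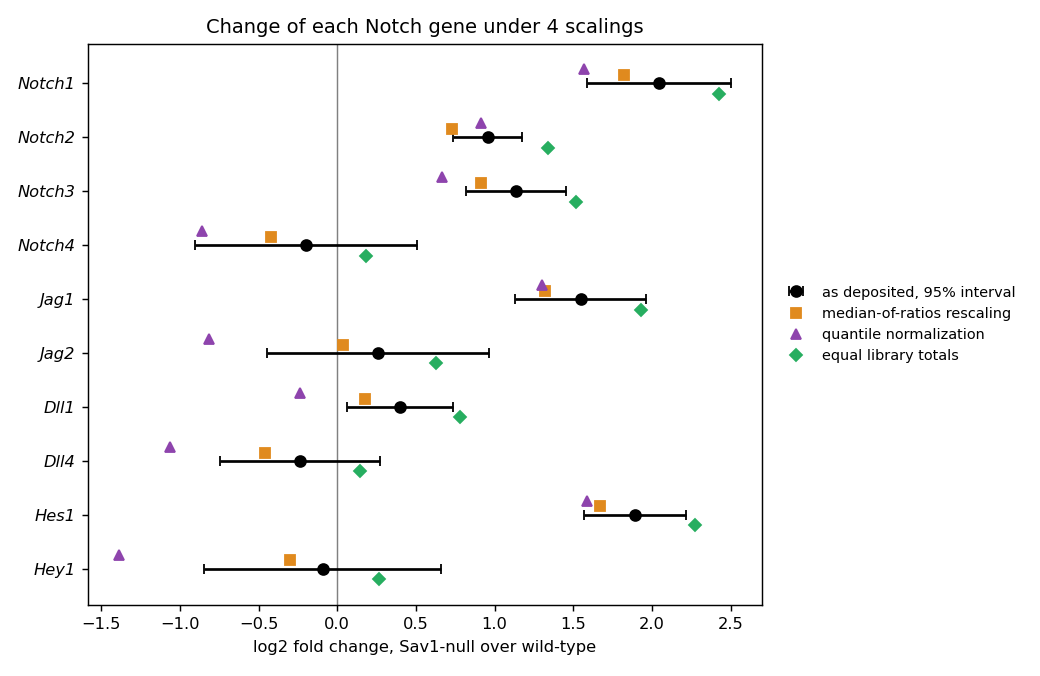
Log2 fold change of Sav1-null over wild-type (horizontal axis) for each Notch gene, as deposited (black circle with 95% interval) and when ratio-scaled (orange squares), quantile-normalized (purple triangles) or total-scaled (green diamonds). Notch1, Notch2, Notch3, Jag1 and Hes1 lie to the right of 0 under every scaling, while Notch4, Dll4 and Hey1 lie between -1.39 and 0.26.

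Per kilobase of the longest annotated coding transcript, Hes1 was the highest of the 10 genes in both groups, at a mean level of 498 per kb in Sav1-null and 134 per kb in wild-type cortex. In Sav1-null cortex Jag1 (137 per kb) and Notch2 (132 per kb) came next with overlapping libraries, and then Dll1, Notch1 and Notch3 (51.2, 49.0 and 42.7 per kb), whose libraries also overlapped. In wild-type cortex Notch2 (68.3 per kb), Jag1 (47.8 per kb) and Dll1 (38.4 per kb) followed Hes1, each overlapping its neighbour. Notch1, at 11.6 per kb, was below the other 3 receptors in wild-type cortex, and in Sav1-null cortex Notch4 (21.1 per kb) was the one receptor with a range wholly below that of Notch1 (39.9 to 69.5 per kb). Jag2 and Hey1 were the lowest in both groups, at 7.55 and 5.61 per kb in Sav1-null and 6.39 and 6.17 per kb in wild-type cortex.

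The make-up of the receptor and ligand pools, each gene's share of the summed levels per kb of its family, was examined after the values were seen. Notch1 made up 19.8% ± 3.88 of the receptor sum in Sav1-null and 9.45% ± 1.21 in wild-type libraries, and Notch4 8.84% ± 3.56 in Sav1-null and 19.1% ± 5.10 in wild-type libraries (SD, n = 4 each, permutation tests below). Notch2 held 54.0% ± 1.76 in Sav1-null and 55.8% ± 6.16 in wild-type libraries. Jag1 made up 63.0% ± 1.19 of the ligand sum in Sav1-null and 40.0% ± 8.64 in wild-type libraries, and Dll4 10.1% ± 1.94 in Sav1-null and 21.9% ± 4.21 in wild-type libraries. The shares of Notch1, Notch4, Jag1 and Dll4 did not overlap between groups, with a two-sided exact permutation p of 0.0286, the smallest that 4 libraries against 4 allow. Adjusted over the 8 shares this became 0.0571, so none passed. At this smallest p the adjusted value depends on how many tests are made together and how many of them reach it. Passing or not, here and for the ratios below, is therefore no measure of which differ more.

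Whether related genes changed unequally was tested by their log2 ratio within each library, in which a library's scaling factor cancels apart from the pseudocount. Of 5 pairs, 4 had ratios that did not overlap between the groups and passed a two-sided exact permutation test (p = 0.0286 each, the smallest the design allows, 0.0357 adjusted over the 5 pairs). The share among pairs of any genes was not computed. Of all tested single genes, 41.0% lay apart upward and 24.1% downward, so separated ratios do not by themselves set these pairs apart. Hes1 over Hey1 differed most, at 5.67 ± 0.55 in Sav1-null and 3.69 ± 0.34 in wild-type libraries, a difference of 1.99. Notch3 over Notch4 was at 1.36 ± 0.86 in Sav1-null and 0.03 ± 0.30 in wild-type libraries, a difference of 1.34 that was 0.93 without Sav1-null replicate 4. Notch1 over Notch2 was at -1.61 ± 0.31 in Sav1-null and -2.70 ± 0.27 in wild-type libraries, a difference of 1.09. Dll1 over Dll4 was at 1.15 ± 0.44 in Sav1-null and 0.52 ± 0.29 in wild-type libraries, and this difference of 0.63 was 0.41 without Sav1-null replicate 4. For this pair the groups were barely apart, with the lowest Sav1-null library at 0.886 and the highest wild-type library at 0.872. Jag1 over Jag2 was at 4.32 ± 0.28 in Sav1-null and 3.03 ± 0.89 in wild-type libraries, a difference of 1.29 with overlapping groups that did not pass (exact permutation p = 0.0571, also after adjustment).

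**Figure D3:**
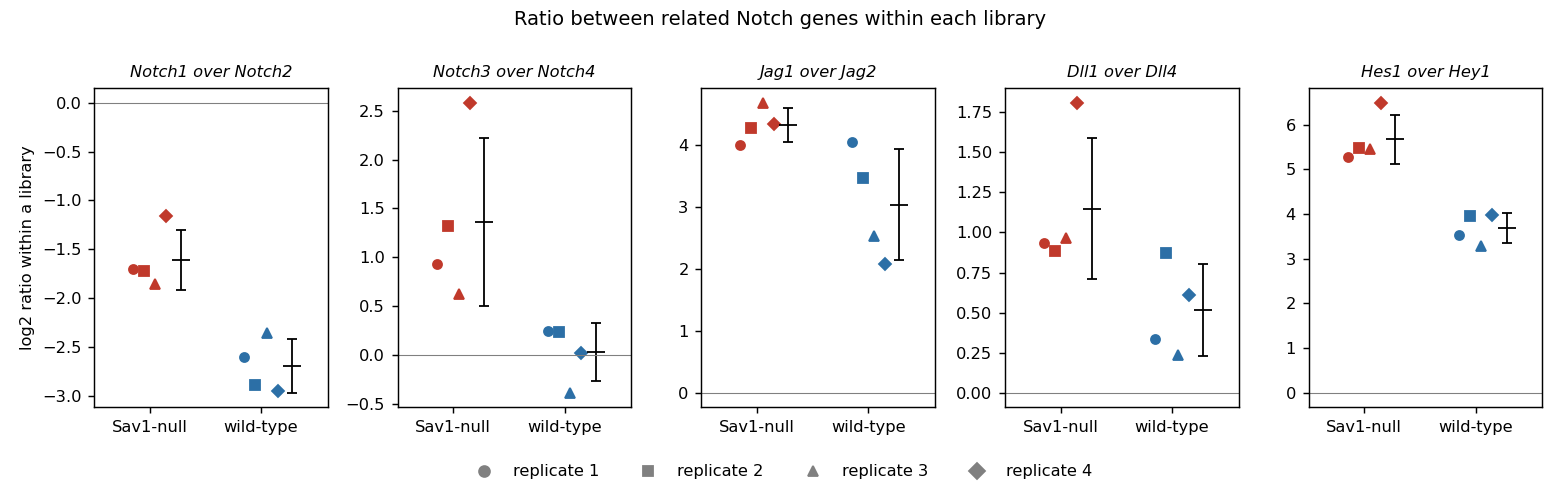
Log2 ratio between 2 related Notch genes within each library (vertical axis; each panel has its own range) in Sav1-null (red, left) and wild-type (blue, right) cortex, with marker shapes for replicate numbers and black bars for mean ± SD. All Sav1-null libraries lie above all wild-type libraries except for Jag1 over Jag2, where wild-type replicate 1 (4.05) lies above Sav1-null replicate 1.

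The vascular members can be read beside markers of the cells that usually express them. In bulk tissue, fewer cells of a type and less RNA per cell cannot be told apart. Of 12 endothelial markers 0 were called higher and 1, the VEGF receptor gene Kdr, lower (limma, with the same counts at an unadjusted p under 0.05), and their summed value ranged from 1969 to 4203 in Sav1-null and from 3858 to 4829 in wild-type libraries. Pecam1 and Cdh5, junction genes of endothelium, were at 472 ± 177 and 237 ± 95.4 in Sav1-null and 499 ± 29.3 and 259 ± 51.4 in wild-type libraries, and neither passed the test. The endothelial counts were 0 higher and 3 lower when ratio-scaled, 0 and 7 when quantile-normalized, 1 and 1 when total-scaled, and 1 and 2 without Sav1-null replicate 4. Against the mean log2 value of this list, Notch4, Dll4 and Hey1 were 0.21, 0.18 and 0.32 higher in Sav1-null libraries, with overlapping groups (two-sided exact permutation p adjusted over 4 ratios 0.343, 0.514 and 0.343). Without Sav1-null replicate 4 the differences of Dll4 and Hey1 were -0.0026 and 0.19, and that of Notch4 was 0.11 without wild-type replicate 1 and 0.14 without Sav1-null replicate 3. Of 10 mural markers 4 rose and 2 fell (5 and 1 total-scaled, 2 and 2 ratio-scaled, 1 and 4 quantile-normalized, and 2 or 3 in each direction without any 1 library other than Sav1-null replicate 4, without which they were 5 and 3), and their summed value ranged from 2008 to 3928 in Sav1-null and from 2700 to 2799 in wild-type libraries. Pdgfrb, the pericyte receptor for PDGF-B, was called higher (522 ± 206 in Sav1-null and 246 ± 64.3 in wild-type libraries), and Rgs5, another pericyte gene, was not (195.5 ± 84.7 in Sav1-null and 183 ± 31.6 in wild-type libraries). Notch3 against the mean log2 of the mural list was at 0.90 ± 0.83 in Sav1-null and -0.28 ± 0.11 in wild-type libraries, without overlap (exact permutation p = 0.0286, adjusted 0.114). That difference of 1.18 was 0.78 without Sav1-null replicate 4. The part of mural markers in the rise of Notch3 was not tested.

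Other marker lists moved with the rises of Notch1, Notch2, Jag1 and Hes1, and their part in those rises was not tested. None of their markers was at 0 in every library. Injured tubule markers rose in 8 of 8, with a summed value of 50527 to 84361 in Sav1-null and 2519 to 5221 in wild-type libraries. The injury genes Havcr1 and Lcn2 were at 10530 ± 4372 and 17576 ± 11497 in Sav1-null and 451 ± 529 and 97.5 ± 102 in wild-type libraries. Principal cell markers of the collecting duct rose in 7 of 8 (23603 to 40991 in Sav1-null, 10425 to 13432 in wild-type libraries), among them the water channel gene Aqp2, and intercalated cell markers rose in 6 of 8 and fell in 1 (10278 to 15361 in Sav1-null, 7063 to 7410 in wild-type libraries), among them the transcription factor gene Foxi1 (5 rose and 2 fell when ratio-scaled). Aqp2 was at 7438 ± 2629 and Foxi1 at 1503 ± 414 in Sav1-null libraries, against 2033 ± 479 and 573 ± 67.9 in wild-type libraries. Fibroblast markers rose in 4 of 5 tested (1406 to 4645 in Sav1-null, 163 to 664 in wild-type libraries). That count was 3 when ratio-scaled or quantile-normalized, in limma without the trend, and without wild-type replicates 2 and 3 together. It was also 3 without any 1 library except wild-type replicate 1 (4) and Sav1-null replicate 4 (5). Macrophage markers rose in 6 of 6 (4705 to 6807 in Sav1-null, 739 to 1486 in wild-type libraries). The collagen gene Col1a1 was at 910.3 ± 308 in Sav1-null and 90.2 ± 54.8 in wild-type libraries. Proximal tubule markers fell in 7 of 8, with a summed value of 35415 to 76233 in Sav1-null and 321108 to 362206 in wild-type libraries, among them the endocytic receptor gene Lrp2 (10114 ± 4214 in Sav1-null and 36777 ± 2405 in wild-type libraries).

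The rest of the pathway was read from 9 lists of 59 symbols, 57 of them in the table and 47 tested. Of these 47, 29 rose and 6 fell, or 61.7% and 12.8%, beside the 43.9% and 25.2% of all tested genes given above, and their median log2 fold change was 0.45. The counts were 21 and 10 ratio-scaled, 21 and 10 quantile-normalized, and 36 and 4 total-scaled. Those of all tested genes moved with the scaling too. They were 4595 and 4652 of 13656 ratio-scaled, 4245 and 4551 of 13677 quantile-normalized, and 8733 and 1946 of 13736 total-scaled. The plot of pathway genes by role shows each gene.

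**Figure D4:**
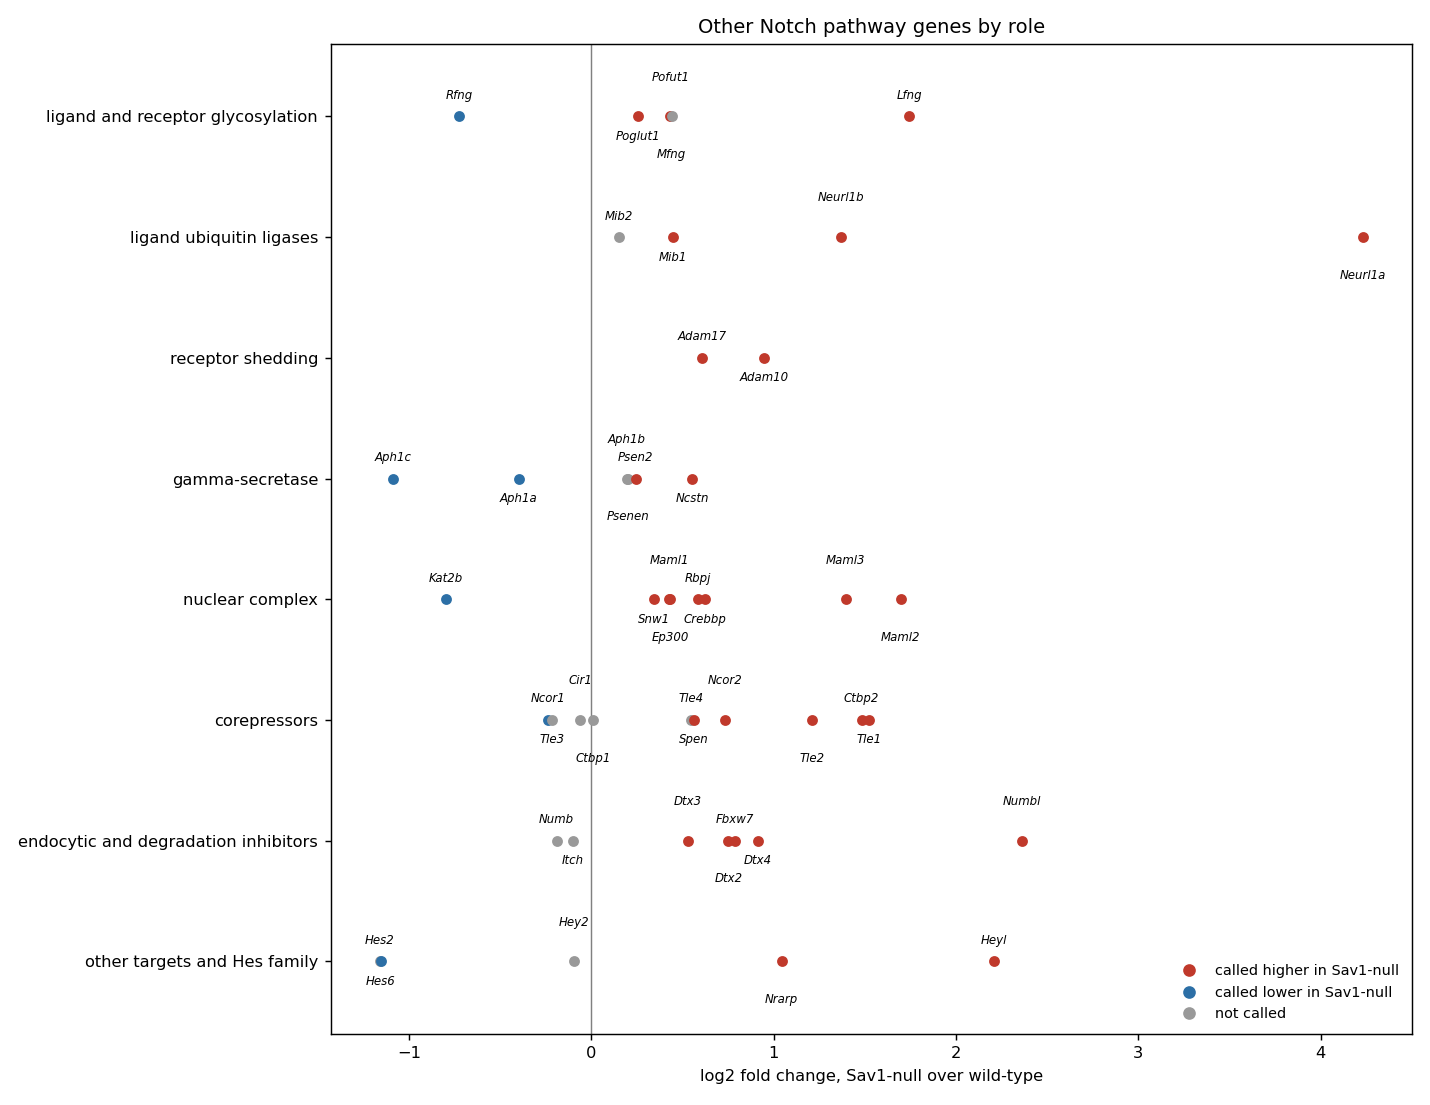
Log2 fold change of Sav1-null over wild-type (horizontal axis) for the 47 tested Notch pathway genes outside the 10, grouped by role, with genes called higher in red, called lower in blue and not called in grey. Neurl1a lies farthest to the right at 4.23, and gamma-secretase genes lie on both sides of 0.

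Genes that modify receptors and ligands or prepare ligands for signalling were read from a pair of lists. Of 5 tested glycosylation genes 3 rose and 1 fell (4 and 1 total-scaled, 2 and 1 ratio-scaled, 1 and 1 quantile-normalized). Lfng, the lunatic fringe glycosyltransferase that alters which ligands a receptor answers to, was at 111, 109, 99.5 and 93.5 in Sav1-null libraries, against 29.0, 29.3, 37.3 and 25.8 in wild-type libraries. It rose 3.35-fold (limma adjusted p = 2.01e-05) and 1.72-fold when quantile-normalized, while its relative Rfng, radical fringe, fell 1.65-fold (424 ± 34.5 in Sav1-null and 701 ± 63.9 in wild-type libraries). Pofut1 and Poglut1, which put the first sugars on Notch repeats, rose 1.35-fold and 1.20-fold, of which neither was called when quantile-normalized and Poglut1 not when ratio-scaled. Poglut1 was also not called without wild-type replicates 2 and 3 together. Of 4 tested ubiquitin ligases of the ligands 3 rose and 0 fell, also at an unadjusted p under 0.05 (2 and 0 both ratio-scaled and quantile-normalized, 4 and 0 total-scaled). Neurl1a, a Neuralized ligase, was at 113, 162, 121 and 382 in Sav1-null libraries, against 8.16, 7.54, 7.66 and 9.28 in wild-type libraries. Its wild-type values were below 10, so it passed the filter through its Sav1-null values. It rose 18.8-fold (14.4-fold without Sav1-null replicate 4, 9.39-fold quantile-normalized and 10.01-fold with a pseudocount of 10), and Neurl1b rose 2.58-fold. The rise of Mib1, the main ligase for ligand uptake, was 1.36-fold with overlapping groups, and lost its call when ratio-scaled or quantile-normalized, in limma without the trend, and without any 1 of Sav1-null replicates 1, 2 and 3 and wild-type replicates 2, 3 and 4. Mib1 was also not called without wild-type replicates 2 and 3 together.

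The proteases did not move as a block. Adam10 and Adam17, which make the first cut of the bound receptor, rose 1.93-fold and 1.52-fold under the deposited scaling and were called higher under the other 3 scalings too. Of 6 gamma-secretase genes 2 rose and 2 fell (1 and 2 ratio-scaled, 1 and 3 quantile-normalized, 4 and 1 total-scaled). Ncstn, which encodes nicastrin, rose 1.47-fold, whereas Aph1c fell 2.12-fold (444 ± 98.02 in Sav1-null and 928 ± 109 in wild-type libraries). Aph1a was at 825 ± 26.8 in Sav1-null and 1091 ± 97.1 in wild-type libraries and fell 1.32-fold, a call lost when total-scaled. The small rise of Psen2 (1.18-fold) was lost when ratio-scaled, with the replicate block and without any 1 library except wild-type replicates 1 and 3, and became a log2 fold change of -0.05 when quantile-normalized. Psen2 was also not called without wild-type replicates 2 and 3 together.

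In the nucleus, 7 of 8 tested genes of the activating complex rose and 1 fell (3 and 1 ratio-scaled, 5 and 1 quantile-normalized). Rbpj, the DNA-binding partner of every Notch receptor, was at 969 ± 110 in Sav1-null and 646 ± 82.7 in wild-type libraries, a rise of 0.58 on the log2 scale (limma adjusted p = 0.00165). The Mastermind co-activators rose unequally, Maml2 by 3.24-fold, Maml3 by 2.63-fold and Maml1 by 1.35-fold, the last not called when ratio-scaled or quantile-normalized. Maml3 rose 1.72-fold when quantile-normalized. Kat2b, an acetyltransferase gene, fell 1.74-fold. Of 10 corepressors 5 rose and 1 fell (5 and 3 ratio-scaled, 5 and 1 quantile-normalized, 8 and 0 total-scaled). Ctbp2 and the Groucho-type gene Tle1 rose 2.79-fold and 2.87-fold, Tle2 2.31-fold and Spen 1.48-fold, and Tle1 rose 1.87-fold when quantile-normalized. Ncor1 fell by 0.24 on the log2 scale, with overlapping groups (limma adjusted p = 0.0476). The call was lost without any 1 library except Sav1-null replicate 3 and wild-type replicate 3, and its sign turned when total-scaled (0.15) and quantile-normalized (0.03). Ncor1 was also not called with no filter on low values, in limma without the trend, and without wild-type replicates 2 and 3 together.

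The list of endocytic and degradation inhibitors also holds the Deltex genes, so it is not to be read as a set of inhibitors only. Of its tested genes 5 of 7 rose and 0 fell, also at an unadjusted p under 0.05 (4 and 1 both ratio-scaled and quantile-normalized, 5 and 0 total-scaled). Numbl, a relative of the Notch inhibitor Numb, was at 94.5, 128, 86.9 and 173 in Sav1-null libraries, against 19.0, 19.3, 39.2 and 15.5 in wild-type libraries, a 5.15-fold rise that was 2.65-fold when quantile-normalized. Numb itself was at 363 ± 31.8 in Sav1-null and 413 ± 12.6 in wild-type libraries and did not pass the test (limma adjusted p = 0.0887). All its Sav1-null libraries nevertheless lay below all its wild-type libraries (two-sided exact permutation p = 0.0286), as in 24.1% of all tested genes. Fbxw7, which marks the Notch intracellular domain for breakdown, rose 1.73-fold, and the Deltex genes Dtx2 and Dtx3 rose 1.68-fold and 1.44-fold, of which Dtx2 was not called when quantile-normalized and Dtx3 not when ratio-scaled.

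Other target and Hes family genes went both ways: of 5 tested 2 rose and 1 fell (2 and 2 ratio-scaled and with the replicate block, 1 and 3 quantile-normalized). Heyl, a Hey family target known from mural cells, was at 305, 496, 277 and 425 in Sav1-null libraries, against 71.6, 115, 85.2 and 53.6 in wild-type libraries. All Sav1-null libraries were above all wild-type libraries, and Heyl rose 4.61-fold (limma adjusted p = 6.18e-05). Nrarp, a target whose product dampens Notch signalling, rose 2.06-fold (171 ± 30.9 in Sav1-null and 82.2 ± 10.8 in wild-type libraries), a call lost when quantile-normalized (0.33 on the log2 scale, limma adjusted p = 0.0940). Hes6, whose product counters HES1, fell 2.22-fold (746 ± 85.0 in Sav1-null and 1680 ± 339 in wild-type libraries). Hey2 and Hes2 did not pass, at 14.8 ± 8.74 and 12.8 ± 9.74 in Sav1-null and 13.3 ± 3.59 and 24.8 ± 7.65 in wild-type libraries. Dll3, Dner and Hes5 were at 0 in all libraries, and Dlk1, Dlk2, Rbpjl, Dtx1, Bend6, Hes3 and Hes7 were below the level required for testing.

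The genes with profiles most like those of Notch1, Jag1 and Hes1 were found by the root mean square difference between log2 profiles over the 8 libraries, each centred on its own mean, among 10914 other genes with a mean of at least 100. This measure contains the difference between the groups, which many genes share. Nearest to Notch1 were Grhl2, an epithelial transcription factor gene (0.0984), 2610524H06Rik (0.103) and Frem2, a basement membrane protein gene (0.125), where the median over all candidates was 1.02. Nearest to Jag1 were the fucosyltransferase gene Fut11 (0.114), Trim12c (0.135), whose reads can be shared with close copies, and the antiviral zinc finger gene Zc3hav1 (0.142), with a median of 0.799. Nearest to Hes1 were the major vault protein gene Mvp (0.0968), the intercalated cell water channel gene Aqp6 (0.102) and Sbno2 (0.105), with a median of 0.937.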

How the data were processed

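Poly(A) RNA of 8 mouse kidney cortex samples was sequenced from stranded libraries, per the labels' protocols. The deposited values are a normalized expression signal, not counts. Picard 1.64, SAMtools and RSEM were used with genome build mm9, per the submitters' processing notes. Neither labels nor header name the aligner, the annotation or the strand setting (not given in the sources used here), so genes with antisense partners or close copies are uncertain. Divided by a library's step, 92.7% to 93.3% of the values below 400 were whole to within 0.02, too few for a count test.

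Groups came from the sample titles. Genes with a mean of at least 10 were compared as log2(value + 1) in R 4.3.3 with limma 3.58.1 (intensity trend, Benjamini-Hochberg over all 13677 tested genes, threshold 0.05), after a test on simulated data. Fold changes are antilogs of log2 fold changes on that scale, which understates changes of low genes. Single values used two-sided exact permutation tests over 70 assignments. Lengths came from GENCODE M21 (GRCm38), another build than mm9, so levels per kb are approximate. Named genes were the 10 Notch genes, up to 4 called genes of each pathway list in each direction, the first 2 genes of each marker list, the nearest profiles and Sav1. Numb, Hey2, Hes2, Kdr and genes below the filter were added after their values were seen. Of the gamma-secretase and podocyte lists, 1 gene each is not reported here. The members and lists were chosen with earlier results of these data known. Alternatives covered pseudocounts, filters, scalings, trend, replicate block and each library left out. Leaving out wild-type replicates 2 and 3, which had the highest Havcr1 of their group, was chosen after seeing the data.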

Additional observations from a re-analysis of the deposited data

Results flagged for a closer look

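Each group of 4 libraries of 40 named genes was searched for a library far from the other 3, by the gap to the nearest divided by the range. Of 80 groups, 3 (3.75%) had such a library, where chance flags about 5%. Notch1 in Sav1-null replicate 4 was at 659, with the other Sav1-null libraries between 379 and 425. Maml2 in wild-type replicate 2 was at 125, with the others between 96.9 and 100.5. Numbl in wild-type replicate 3 was at 39.2, with the others between 15.5 and 19.3. Without that library, as in all of the leave-outs, each of these 3 genes kept its call.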

How the results depend on the processing

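Across 718 values of 40 named genes under alternative settings, 655 kept their direction and side of the threshold, 48 lost the call, 3 gained one and 12 turned direction. Of the called genes, Dll1 (-0.24), Psen2 (-0.053) and Ncor1 (0.027) turned when quantile-normalized and Ncor1 (0.15) when total-scaled. Of those not called, Jag2 (-0.82) turned when quantile-normalized, Notch4 (0.18), Dll4 (0.14) and Hey1 (0.26) when total-scaled, and Hey1 (0.086) without wild-type replicates 2 and 3. With 1 library left out, Notch4 ranged from -0.37 to 0.11 and Hey1 from -0.21 to 0.14. Quantile normalization gave 3 of the 10 Notch genes called lower instead of 0, where 4551 of all 13677 tested genes were called lower instead of 3452. Pathway genes called lower numbered 10 ratio-scaled, 10 quantile-normalized and 4 total-scaled, instead of 6, and genes of the whole table called lower numbered 1946 total-scaled instead of 3452. With a pseudocount of 10 the ratio of Jag1 over Jag2 passed (difference 1.31). The causes were not tested. With 1 library left out, 5 or 6 Notch genes were called higher. Ratios with 1 library left out were computed without a test, and the 5 pair differences stayed above 0. With the replicate block 5927 genes were higher and 3391 lower, 5 Notch genes were higher and 0 lower, and 28 pathway genes were higher and 7 lower. Libraries with the same number deviated together by 0.14, 0.08, -0.17 and 0.13 (correlation over genes), and those with different numbers by -0.22 to 0.24. The titles do not say whether the numbers pair the libraries, and low correlations cannot settle it. Among the 10 Notch genes, Hey1 and Jag2 had the fewest reads.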

Other observations

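Podocyte genes were mixed: 1 of 5 rose and 2 fell, against 1 lower when total-scaled or without Sav1-null replicate 2 or wild-type replicate 1 or 3, and 3 lower when quantile-normalized or without Sav1-null replicate 1. They had a summed value of 1706 to 3237 in Sav1-null and 3157 to 4409.6 in wild-type libraries. Nphs1, which encodes nephrin, was at 88.0 ± 61.5 in Sav1-null and 358 ± 65.2 in wild-type libraries. Of 7 T and B cell markers 3 were tested and 3 rose (2 when quantile-normalized or without Sav1-null replicate 2), with a summed value of 111 to 134 in Sav1-null and 33.5 to 49.9 in wild-type libraries. Cd3e and Cd3g, which encode chains of the T cell receptor complex, were at 20.3 ± 5.66 and 36.8 ± 4.83 in Sav1-null and 2.92 ± 2.89 and 7.77 ± 2.08 in wild-type libraries. They averaged below 10 in wild-type libraries and passed the filter through their Sav1-null values, so the count of 3 is partly set by the filter. Below the filter, Cd2 was at 14.7 in Sav1-null and 2.53 in wild-type libraries, and the B cell gene Cd79a at 4.85 and 12.5 in that order. Of 5 sex-chromosome transcripts 1 rose and 4 fell.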
